A study of Bos taurus
Mus musculus with 10 samples.

Results

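Tankyrases and the core of the beta-catenin destruction complex were followed at the RNA level in bovine embryonic stem cells and in the mouse fibroblasts that fed them, after removal of the tankyrase inhibitor IWR-1 from the medium. The set has 8 genes, chosen by name for their place in the pathway: TNKS, TNKS2, RNF146, AXIN1, APC, GSK3A, GSK3B and CSNK1A1. Earlier results of these data were known when the genes were chosen. All 8 were present among the 27590 genes of the bovine table, and the 8 mouse orthologues were found by NCBI gene ID among the 31349 genes of the mouse table. Every one passed the filter on low values in both tables, which left 18506 bovine and 15871 mouse genes in the tests.

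Each of the 10 wells held wild-type bovine stem cells on feeder fibroblasts made from CD-1 mouse fetuses (E13.5), whose growth had been blocked with mitomycin C. The stem cell lines 1, 2, 4, 8 and 11 came from blastocysts of day 7.5 and had all been kept in mTeSR1 with 2.5 µM IWR-1. For the experiment each line filled 2 wells, of which 1 stayed on that medium (IWR) and 1 was rinsed and given the medium lacking the inhibitor (IWRR). RNA was collected at day 1, so each medium has 5 libraries, 1 per line. A library gave 48064953 to 64345738 reads on bovine genes and 17101894 to 35223039 on mouse genes.

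Tankyrase 1 (TNKS) and tankyrase 2 (TNKS2) are poly(ADP-ribose) polymerases that attach chains of ADP-ribose to AXIN, the limiting scaffold of the destruction complex. The RING ubiquitin ligase RNF146 recognises these chains and marks AXIN for breakdown. AXIN1 and APC hold the complex together, while casein kinase 1 alpha (CSNK1A1) and the glycogen synthase kinases GSK3A and GSK3B phosphorylate beta-catenin so that it is destroyed. IWR-1 binds tankyrase and thereby stabilises AXIN, a control that acts on protein. Protein was not measured here, and the values below are normalised read counts, which are reads per gene divided by a scaling factor of the library. Apart from marker levels, marker sums and ratios of genes, they are set side by side within a gene and not between genes, because transcript lengths were not used here. The marker sums add counts of different genes, so genes with high counts weigh most in them.

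In the stem cells, none of the 8 transcripts passed the test for a difference 1 day after IWR-1 withdrawal. The line-paired limma fit (Benjamini-Hochberg adjusted p under 0.05) called 0 of the 8, against 0.951% of all tested bovine genes, and edgeR and DESeq2 with the line as a block also called 0. At an unadjusted p under 0.05 there was 1 of the 8, AXIN1, where 10.1% of all tested genes passed. The 8 log2 fold changes lay between -0.16 and 0.12 with a median of -0.02, and the median over all tested genes was -0.00463. The outermost 95% limits over the 8 genes were -0.36 and 0.24 on the log2 scale, which corresponds to 0.780-fold and 1.18-fold. Every limma call between media rests on pairing wells by line: without the replicate block, or with the mouse share as a covariate, limma called 0 genes in either table, AXIN2 and AMOTL2 included. In such bulk wells, fewer cells of a type and less RNA per cell cannot be told apart.

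**Figure D1:**
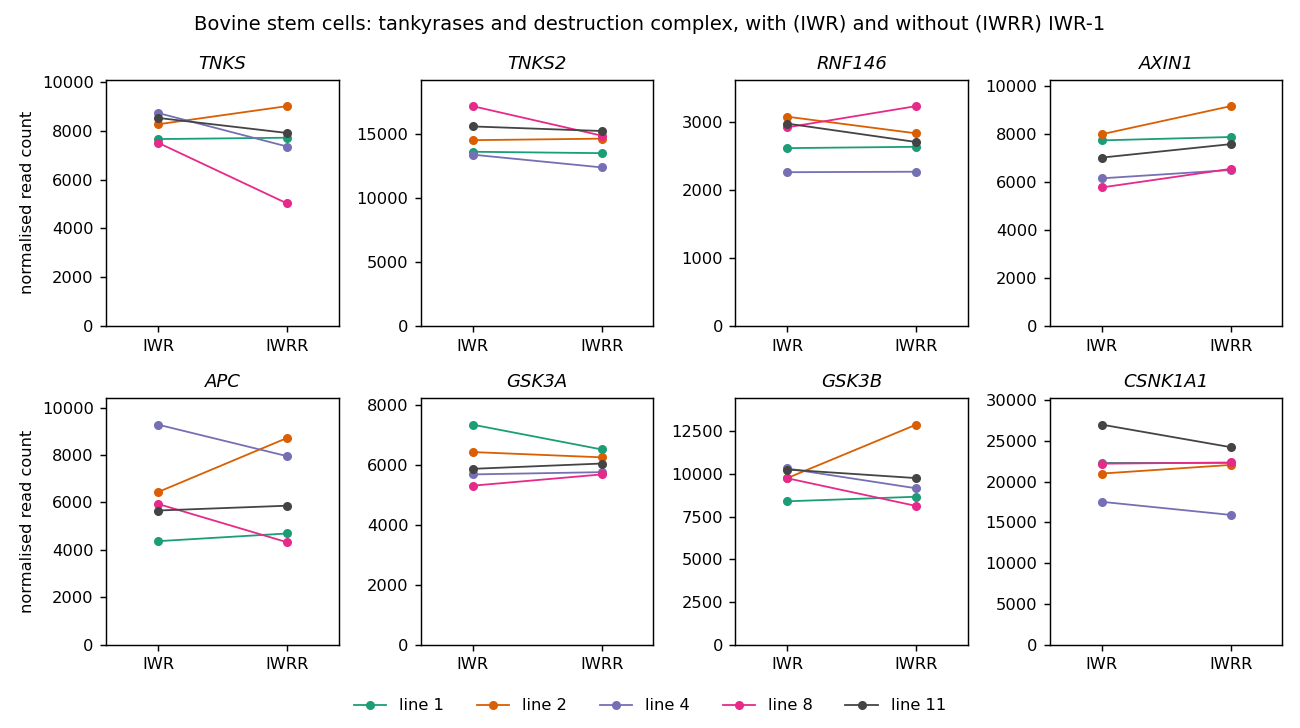
Normalised read count (y axis, from 0) of each of the 8 bovine genes in wells with IWR-1 (IWR) and without it (IWRR), with 1 line joining the wells of each of the 5 stem cell lines. The media overlap for every gene, AXIN1 is higher without IWR-1 in 5 of 5 lines, and TNKS in line 8 is at 7517 with and 5027 without IWR-1.

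The direct target of the inhibitor was considered first. Bovine TNKS stood at 7666, 8271, 8737, 7517 and 8534 normalised reads in lines 1, 2, 4, 8 and 11 with IWR-1, and at 7721, 9017, 7360, 5027 and 7916 without it. The media overlapped, as they did for each of the 8 genes (0.113% of all tested bovine genes had media that did not), 3 of 5 lines were lower without IWR-1, and the well of line 8 was the lowest of the 10. The means were 8145 ± 534 and 7408 ± 1468 (SD, n = 5), and the log2 fold change was -0.16 ± 0.09 (SE), with a limma adjusted p of 0.643. The 95% interval ran from 0.780-fold to 1.03-fold. The mean change moved to -0.06 without line 8 and to -0.23 without line 2.

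The paralogue TNKS2 gave 13599, 14503, 13373, 17160 and 15575 normalised reads in lines 1, 2, 4, 8 and 11 with IWR-1 and 13490, 14622, 12380, 14858 and 15218 without it. Values were lower without IWR-1 in 4 of 5 lines, line 2 being the exception, and the media overlapped. The log2 fold change was -0.07 ± 0.06 (SE; limma adjusted p = 0.803). RNF146, whose product reads the mark that tankyrases write, ranged from 2262 to 3079 with IWR-1 and from 2269 to 3234 without it (log2 fold change -0.02 ± 0.06). It was higher in 3 lines and lower in 2.

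AXIN1 was the 1 gene of the set that moved the same way in all 5 bovine lines. With IWR-1 its normalised read counts were 7733, 7988, 6152, 5772 and 7016 in lines 1, 2, 4, 8 and 11, and without it 7875, 9161, 6499, 6547 and 7577. Each line was higher without the inhibitor, but the media overlapped, with a wider range among lines than between the wells of a line. Over all tested bovine genes, 6.2% were likewise higher in 5 of 5 lines and 11.1% moved one way in 5 of 5. The means were 6932 ± 964 and 7532 ± 1097 (SD, n = 5). The log2 fold change of 0.12 ± 0.05 (SE), or 8.60%, had an unadjusted 95% interval of 0.146% to 17.8%, and it did not pass the test over all genes (limma adjusted p = 0.487). It stayed between 0.10 and 0.14 when any 1 line was left out, and was 0.06 once the well's mouse share entered as a covariate.

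The other scaffold, APC, had no common direction. Its counts with IWR-1 were 4361, 6432, 9280, 5934 and 5655 in lines 1, 2, 4, 8 and 11, and without it 4686, 8717, 7950, 4317 and 5858. It was higher without IWR-1 in lines 1, 2 and 11 and lower in lines 4 and 8, so that the mean log2 fold change was -0.02 ± 0.11 (SE; limma adjusted p = 0.987). GSK3B, a kinase of the complex, gave 8395, 9753, 10320, 9750 and 10258 with IWR-1, and 8663, 12892, 9158, 8123 and 9756 without it (log2 fold change -0.01 ± 0.09). Line 2 showed the widest difference upward and line 8 the widest downward, as for APC. GSK3A ranged from 5295 to 7331 with IWR-1 and from 5671 to 6504 without it (-0.01 ± 0.06), and CSNK1A1 from 17513 to 26986 and from 15903 to 24217 (-0.04 ± 0.06).

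AXIN2, the second scaffold of the AXIN type and itself a target of Wnt signalling, offers a contrast within the same libraries. It had a log2 fold change of 0.74 ± 0.13 (SE; limma adjusted p = 0.0258), a call that ended without line 4, 8 or 11 (0.0585 to 0.118) and with no filter on low values (0.0839). With the mouse share as a covariate the change was 0.40 (limma adjusted p = 0.9999), in a fit that called 0 bovine genes. The within-library ratio of AXIN2 to AXIN1 reads, which no scaling touches, was higher without IWR-1 in 5 of 5 lines, by 1.13-fold, 1.28-fold, 1.76-fold, 1.54-fold and 2.19-fold in lines 1, 2, 4, 8 and 11. The exact two-sided sign-flip permutation test over the 5 lines gave p = 0.0625, the smallest that 5 pairs allow. This ratio was chosen with the change of AXIN2 already known. CTNNB1, which encodes beta-catenin, the substrate of the complex, lay at -0.04 ± 0.06 (SE; limma adjusted p = 0.914). Its within-line differences were negative in all 5 lines, from -0.10 to -0.00624 on the log2 scale. Of all tested bovine genes, 11.1% moved one way in 5 of 5 lines. The smallest CTNNB1 difference, in line 8, lay within its counting error of 0.00895 (SE).

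**Figure D2:**
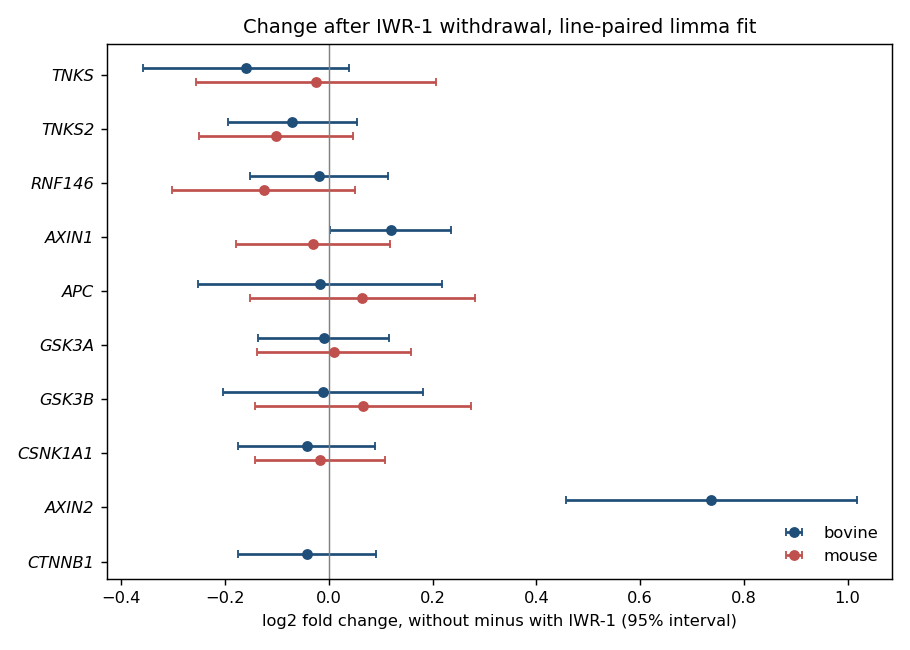
Log2 fold change without minus with IWR-1 (x axis) from the line-paired limma fit for the 8 genes in the bovine and mouse tables and for bovine AXIN2 and CTNNB1. Points are estimates and bars are unadjusted 95% intervals; those of the 8 genes span 0 except bovine AXIN1 (0.12), and AXIN2 lies apart at 0.74.

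In the feeder fibroblasts, too, 0 of the 8 genes were called by limma with the line as a block, and 0 by edgeR or DESeq2 with the block. This compares with 4.19% of all tested mouse genes, of which 340 rose (2.14%) and 325 fell (2.05%). None of the 8 had an unadjusted p under 0.05, a level reached by 16.2% of all tested mouse genes. The log2 fold changes of the 8 lay between -0.13 and 0.07, and the outermost 95% limits were 0.811-fold and 1.21-fold. No mouse gene of the set moved the same way in 5 of 5 lines, as 15.7% of all tested mouse genes did (7.83% upward), and none had media that did not overlap, a pattern of 0.554%.

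Feeder Tnks was at 2501, 3049, 3342, 2970 and 2799 normalised reads in wells of lines 1, 2, 4, 8 and 11 with IWR-1, and at 2812, 3960, 3015, 2040 and 2831 without it. The well of line 2 was the highest and that of line 8 the lowest, both without IWR-1 (log2 fold change -0.03 ± 0.11 SE; limma adjusted p = 0.951). Tnks2 ranged from 5056 to 5535 with the inhibitor and from 4364 to 5652 without it, lower in 4 of 5 lines (-0.10 ± 0.07). Rnf146, the lowest count of the set, went from 556 to 608 with IWR-1 and from 479 to 626 without it, and was also lower in 4 of 5 lines (-0.13 ± 0.08; limma adjusted p = 0.522). Counting error alone reached 0.0965 on the log2 scale (SE) for a within-line difference of Rnf146, the largest of the 16 measured genes, against 0.0171 for bovine CSNK1A1.

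The mouse scaffolds and kinases overlapped between media as well. Axin1 ranged from 1145 to 1230 with IWR-1 and from 1029 to 1292 without it, lower in 4 of 5 lines (log2 fold change -0.03 ± 0.07 SE). Apc was at 2371, 3170, 3325, 2752 and 3089 with IWR-1 and at 2608, 4523, 3377, 2123 and 3134 without it in lines 1, 2, 4, 8 and 11 (0.06 ± 0.10). Gsk3b gave 2902, 3404, 4130, 3206 and 3336, and 2972, 5053, 3593, 2977 and 3418 (0.07 ± 0.10). For both genes the well of line 2 without IWR-1 was the highest of all 10. Gsk3a (0.01 ± 0.07) stayed between 879 and 1133 and Csnk1a1 (-0.02 ± 0.06) between 8027 and 9300 over the 10 wells.

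**Figure D3:**
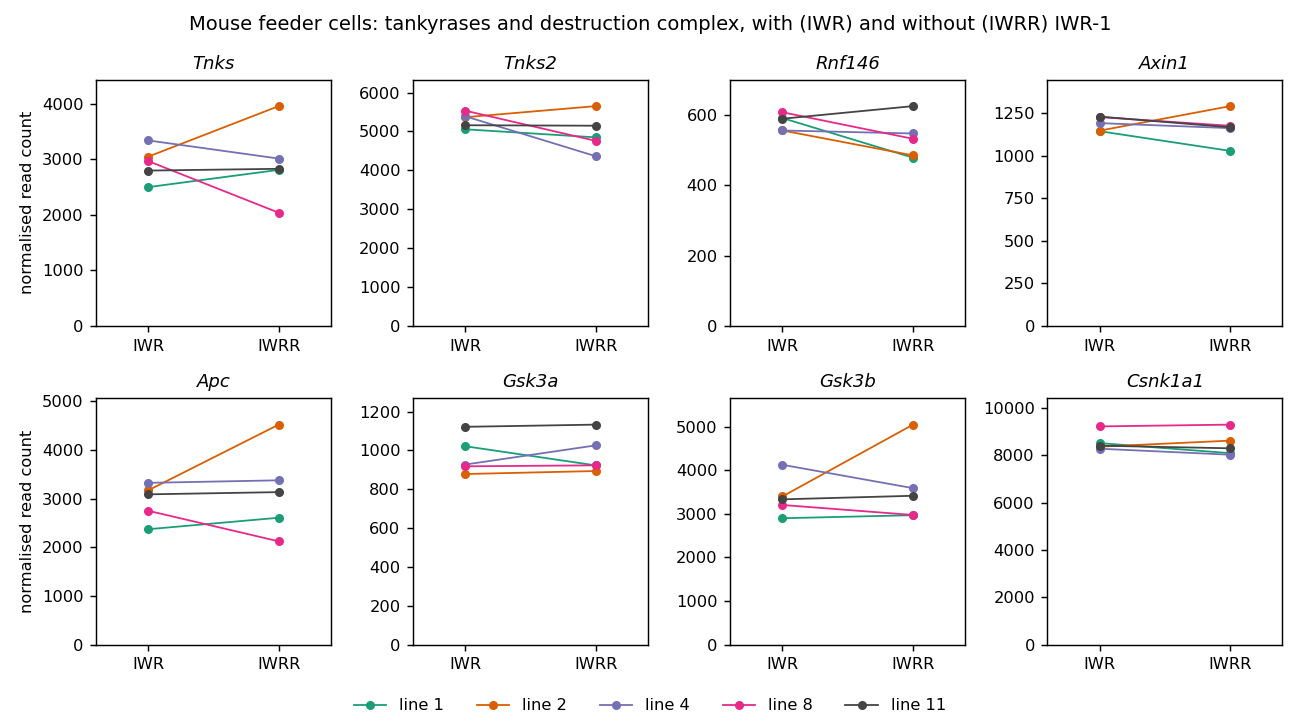
Normalised read count (y axis, from 0) of the 8 mouse genes in the same wells, joined within each stem cell line. The media overlap for every gene, and Tnks, Apc and Gsk3b reach their highest value in line 2 without IWR-1 (3960, 4523 and 5053).

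In lines 2 and 8, APC, GSK3B and TNKS differed between the wells in the same direction in both species. In line 2, bovine APC was higher without IWR-1 by 0.44 on the log2 scale and mouse Apc by 0.51, bovine GSK3B by 0.40 and mouse Gsk3b by 0.57, and bovine TNKS by 0.12 and mouse Tnks by 0.38. In line 8 the same genes were lower, with differences of -0.58 for TNKS and -0.54 for Tnks, -0.46 for APC and -0.37 for Apc, and -0.26 for GSK3B and -0.11 for Gsk3b. Signs were the same in both species for 7 of the 8 genes in line 2, 6 in line 8 and 5 in line 4. In line 4, TNKS (-0.25 bovine, -0.15 mouse), TNKS2 (-0.11, -0.30) and GSK3B (-0.17, -0.20) were lower in both. In line 8, RNF146 was at 0.15 with Rnf146 at -0.19, and AXIN1 at 0.18 with Axin1 at -0.06. In lines 1, 4 and 11, too, some of the wider differences were not shared. Rnf146 in line 1 was at -0.30 with RNF146 at 0.01, APC in line 4 at -0.22 with Apc at 0.02, and RNF146 in line 11 at -0.14 with Rnf146 at 0.09. Each of these differences is between single wells. Bulk RNA of 1 well underlies both values of a pair, and the handling of reads aligning to both genomes was not given in the sources used here. What part either has in the shared differences was not tested.

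Over the 8 genes and 5 lines, the bovine and mouse differences had a Pearson r of 0.76 across 40 points and the same sign in 27 of them. The points share wells and lines, and r is given as a description. Within line 2 it was 0.93 and within line 8 0.83 over 8 genes each, whereas it was 0.42, 0.41 and -0.53 in lines 1, 4 and 11. Over lines 1, 4 and 11 together it was 0.27, with the same sign in 14 of 24 points. TNKS2 had the same sign in both species in 5 of 5 lines, and RNF146 and AXIN1 in 1 of 5 each. Some of these signs belong to differences within counting error. For TNKS2 they were bovine lines 1 (-0.012 ± 0.018, counting SE) and 2 (0.012 ± 0.017) and mouse line 11 (-0.0033 ± 0.026). Line 2 was also where all tested genes differed most between its wells, with an SD of within-line log2 differences of 0.51 in the bovine and 0.56 in the mouse table, followed by line 8 at 0.45 and 0.52. Lines 1, 4 and 11 had 0.40 to 0.44 in the bovine and 0.41 to 0.45 in the mouse table. The bovine TNKS difference in line 8 was at percentile 8.12 of all tested genes, and the bovine APC difference in line 2 at percentile 88.4.

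**Figure D4:**
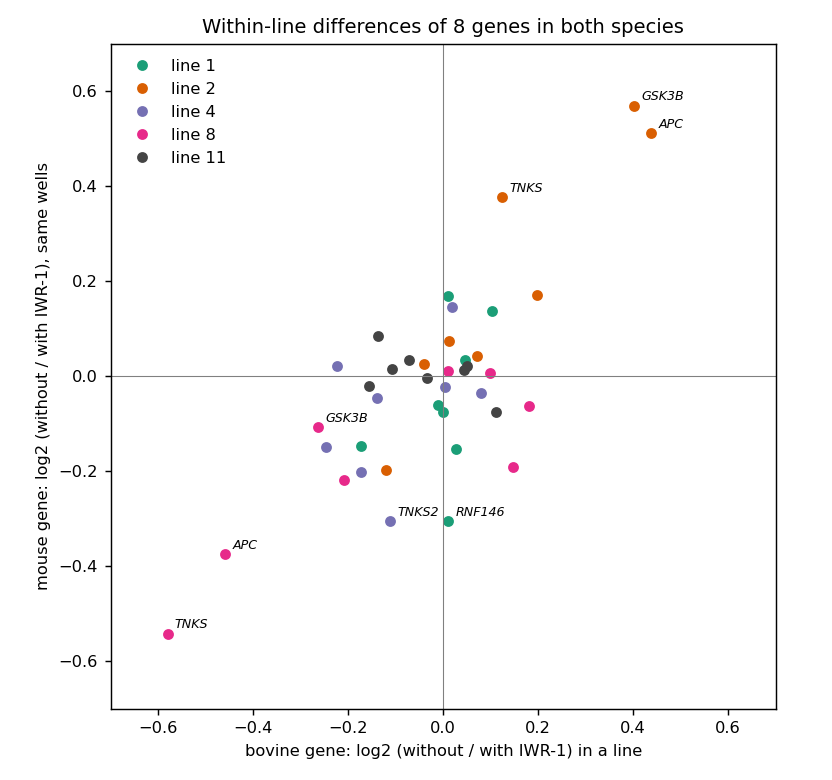
Log2 difference without minus with IWR-1 in a single line for the bovine gene (x axis) and its mouse orthologue in the same wells (y axis), 40 points for 8 genes in 5 lines. APC, GSK3B and TNKS of line 2 lie at the upper right and TNKS and APC of line 8 at the lower left (-0.58 and -0.54 for TNKS).

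Paralogue ratios were taken within libraries, where scaling cancels. The log2 ratio of TNKS2 to TNKS reads differed between media by a mean of 0.09 ± 0.18 (SD, n = 5) in the bovine table, higher without IWR-1 in 3 of 5 lines (exact sign-flip permutation p = 0.375). In the mouse table the mean difference was -0.08 ± 0.25 (SD, n = 5), lower in 4 of 5 lines (exact permutation p = 0.563). Line 8 weighed on both means, which were 0.02 (bovine) and -0.18 (mouse) without it, and the mouse mean was -0.02 without line 2 and -0.04 without line 1. The bovine mean was 0.14 without line 2. In line 8 the ratio was 1.29-fold higher without IWR-1 in the bovine and 1.25-fold higher in the mouse reads. For GSK3A over GSK3B the mean differences in the bovine and mouse tables were 0.00167 ± 0.33 and -0.06 ± 0.33 (SD, n = 5; exact permutation p = 1 and 0.688). Adjusted over these 4 tests, p was 0.917 to 1. With 5 pairs p cannot go below 0.0625.

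More of the 8 bovine genes were called among the stem cell lines than between the media, as was so over all tested bovine genes. The F test of the line term in the same limma fit called 6 of the 8, close to the 66.5% of all tested bovine genes that were called. Lines also differed in the mouse share of their wells, and its part in these calls was not tested. AXIN1 (limma adjusted p = 0.00229) had its highest mean over both wells in line 2, 8575 normalised reads, and its lowest in line 8, 6159. APC (limma adjusted p = 0.00311) ran from 4524 in line 1 to 8615 in line 4, a 1.90-fold range and the widest of the 8. CSNK1A1 (limma adjusted p = 0.0025) ran from 16708 in line 4 to 25601 in line 11, and RNF146 (0.013) from 2266 in line 4 to 3078 in line 8. GSK3A (0.0418) and TNKS2 (0.0449) were close to the threshold, and TNKS (0.0627) and GSK3B (0.132) were not called.

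With any 1 line left out, AXIN1 and APC stayed called in all 5 fits (limma adjusted p up to 0.0124 and 0.025). The calls for CSNK1A1 and RNF146 ended without line 4 (limma adjusted p = 0.205 and 0.288). Those for TNKS2 and GSK3A ended without line 1, 4, 8 or 11 (0.0512 to 0.222 and 0.0551 to 0.241), and TNKS was called without line 2 (0.0303). In the mouse table, where the line term stands for feeders under a given stem cell line, 1 of the 8 genes was called against 35.1% of all tested genes. It was Apc (limma adjusted p = 0.0224), with means of 2437 under line 8 and 3847 under line 2, a call that ended without line 1 (0.0695), while Gsk3b was called without line 2 (0.0135).

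Line 4 stood apart in its mouse share and in its sums of bovine fibroblast and trophectoderm markers. Its mouse share of reads was 42.3% with and 41.4% without IWR-1, against 21.2% to 33.3% in the other lines. Bovine fibroblast and mesenchyme markers, 12 of 12 present, summed to 144987 and 155672 normalised reads in line 4 and to 22914 to 73882 elsewhere. By medium the sums were 22914 to 144987 with IWR-1 and 24282 to 155672 without it. The handling of reads aligning to both genomes was not given. Feeder reads counted as bovine and reads of bovine fibroblast-like cells therefore cannot be told apart in these sums. Of 12 pluripotency markers 11 were present, with sums of 103928 to 198445 with and 100081 to 196645 without IWR-1. The sums of line 4 (103928 and 100081) were the lowest but close to the range of the other lines, 107815 to 198445. POU5F1 (at least 18294) and SOX2 (at least 13371) were high in every library, NANOG was at 1199 to 2520, and DPPA4 at 0 to 7.35. The trophectoderm list summed to 4009 to 29087 with and 8715 to 56725 without IWR-1. Line 4 had the lowest sum in each medium (4009 and 8715), against 11332 to 56725 in the other lines. The keratins KRT8 and KRT18 carried these sums, with GATA3 at 0 to 32.1 and CDX2 at 0 to 86.6. The hypoblast and endoderm list summed to 6977 to 12376 and 8283 to 12807, with SOX17 at 0 to 1.97 and GATA4 at 0 to 2.02. The part of these cell types in the values of the 8 genes was not tested beyond the fits without line 4, in which 0 of the 8 were called between media.

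Mouse reads made up 30.4% ± 7.57 of the reads of a well with IWR-1 and 26.8% ± 8.45 without it (SD, n = 5), lower in each of the 5 lines (mean difference -3.64 points; exact sign-flip permutation p = 0.0625). This share was set beside the share of mouse reads within each orthologue pair. For AXIN1 the mouse part was 9.47% to 27.7% of the pair's reads over the 10 wells, for GSK3A 10.2% to 25.6% and for RNF146 10.98% to 32.7%, in each case below the share of its own well in 10 of 10 wells. For APC it was 26.9% to 44.9%, above the share of the well in 9 of 10. TNKS (22.6% to 44.1%), TNKS2 (19.4% to 44.3%), GSK3B (21.5% to 44.1%) and CSNK1A1 (22.5% to 49.2%) exceeded it in 7, 5, 6 and 8 of 10 wells. Annotated gene lengths of the species enter these shares, the tables were counted on separate genomes, and the order of the genes is therefore a description. In 7 of the 8 pairs, APC apart, both wells of line 4 had the highest mouse parts.

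**Figure D5:**
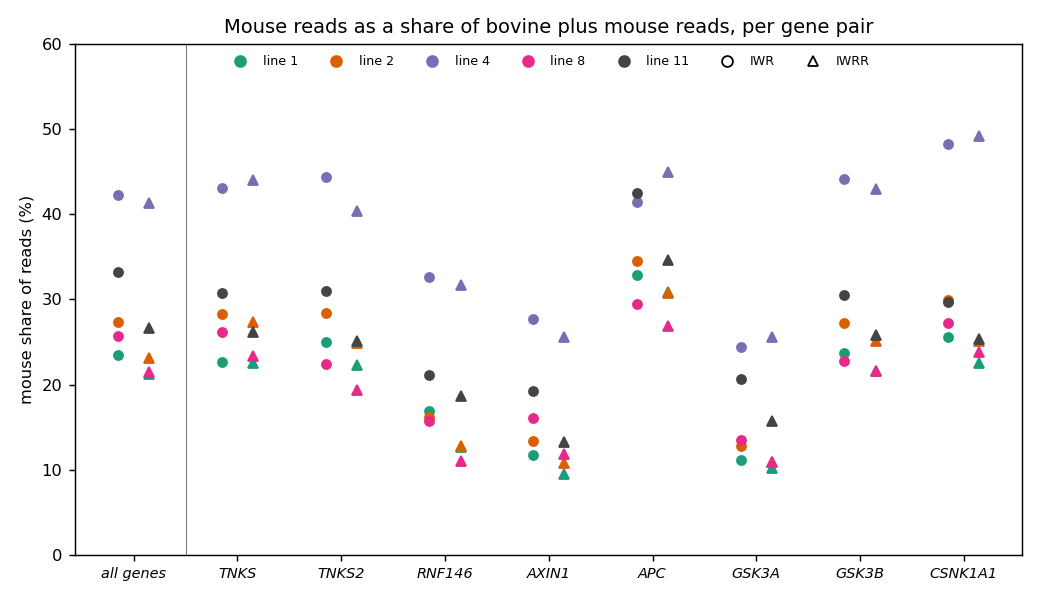
Mouse reads as a percentage of bovine plus mouse reads (y axis) over all genes and for each of the 8 orthologue pairs, 10 wells each; colours are lines, circles are wells with and triangles wells without IWR-1. AXIN1, GSK3A and RNF146 lie below the share over all genes (21.2% to 42.3%) in each well, and line 4 is highest over all genes.

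Other genes in and around the complex were read from a list of 32, not all of which encode parts of it. The list adds further casein kinases, phosphatase subunits, Dishevelled proteins, the ubiquitin ligase that destroys beta-catenin and GSK3-binding proteins to the 8. All 32 were tested in the bovine table: 1 rose (AXIN2), 0 fell and 31 were not called, against 0.886% of all tested genes that rose and 0.0648% that fell. Their median log2 fold change was -0.02, and 9 were positive. Next after AXIN2, TNKS and AXIN1 by p was CSNK1G2, a membrane-bound casein kinase 1 isoform, with 6993 ± 977 normalised reads in IWR wells and 7541 ± 1217 in IWRR wells (SD, n = 5). Its log2 change was 0.11 ± 0.06 (limma adjusted p = 0.653). Without line 4, 8 or 11 the list held 0 calls, as AXIN2 no longer passed.

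Of 15 known partners and substrates of tankyrase, 1 rose, 0 fell and 14 were not called, where 0.886% of all tested bovine genes rose and 0.0648% fell. The gene that rose was AMOTL2, a member of the angiomotin family, whose proteins bind YAP and are degraded through tankyrase and RNF146. It stood at 7785 ± 815 normalised reads in IWR wells and at 11338 ± 1345 in IWRR wells (SD, n = 5), higher in 5 of 5 lines. Its log2 change of 0.54 ± 0.06 passed (limma adjusted p = 0.0027), also with any 1 line left out (0.00183 to 0.0332). With the mouse share as a covariate it was 0.58 and was not called (limma adjusted p = 0.9999), in a fit that called 0 bovine genes. The deubiquitinase gene USP25, whose product binds tankyrases, was at 0.25 ± 0.09 (limma adjusted p = 0.362), the adaptor gene SH3BP2 at 0.16 ± 0.06 (0.406) and MCL1 at 0.08 ± 0.05 (0.7). The median of the 15 was 0.03. On the list of Wnt target genes, 8 of 19 tested members rose and 0 fell, against the same 0.886% and 0.0648% of all tested genes. The median of the list was 0.61, where that of all genes was -0.00463. Like the other lists, it was chosen with earlier results of these data known, so the contrast with all genes is a description. CCND1 (1.15 ± 0.12), BMP4 (0.72 ± 0.10), MSX2 (0.94 ± 0.13) and MSX1 (1.83 ± 0.25) had the smallest p. Without line 11, 1 rose, and 6 or 7 rose without any other line. With no filter 3 rose, and with the mouse share as a covariate 0. Among 4 tested trophectoderm markers, KRT18 (0.96 ± 0.08; limma adjusted p = 0.00108) and KRT8 (0.79 ± 0.09; 0.00453) rose as well, in 5 of 5 lines and also with any 1 line left out, and were not called with the covariate. The other 2, TFAP2C (0.07 ± 0.41, limma adjusted p = 0.986) and TFAP2A (-0.70 ± 0.48, limma adjusted p = 0.748), were not called. The remaining markers of the 10 on that list were too low to test. The part of KRT18 and KRT8 in the rise of AXIN2, AMOTL2 and the Wnt targets was not tested.

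Likeness of pattern was measured as Pearson r of log2 values over the 10 bovine libraries, among 12496 named genes with a mean of at least 100 normalised reads. Nearest to TNKS were CD160 (r = 0.97), ATXN1L (0.96) and ZNF304 (0.95), nearest to TNKS2 were RIMKLB (0.96), CAPRIN2 (0.95) and RPAP2 (0.94), and nearest to AXIN1 were FAM20C, NUP62 and RASL10B (0.97 each). Libraries of a line resemble each other, and the 3 nearest of 12496 candidates are high by selection. Within the set, the libraries with more APC had more GSK3B (r = 0.76 in the bovine and 0.92 in the mouse table), and TNKS varied with GSK3B (0.71 and 0.86) and with APC (0.59 and 0.93). Bovine TNKS and TNKS2 had r = -0.05, and Tnks and Tnks2 of the feeders 0.53.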

How the data were processed

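Poly(A) RNA of 10 wells was sequenced. Reads were mapped to bovine ARS-UCD1.3 and mouse GRCm39, per the labels; featureCounts 1.5.0-p3, StringTie 1.3.3b, HISAT2 2.0.5 and fastp are named without roles, per the submitters' processing notes. The authors deposited 1 table per species of a normalised signal per gene and library; their scaling was not given in the sources used here. In each library 100% of positive values were whole multiples of 1 step (tolerance 0.01 reads), so reads were recovered by division. Of the mouse columns, 2 match no labelled sample and were left out.

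Bovine symbols came from the RefSeq gene table of ARS-UCD2.0, which matched 24660 of 27590 IDs; no sequences or coordinates are given, and the mouse table was read for the 8 IDs alone. Limma 3.58.1 (R 4.3.3) with an intensity trend was fitted to log2(value + 1), which understates changes of low genes, over genes that reached a value of 10 in 5 or more libraries, with line and medium as terms. Each table was fitted and adjusted whole. The line is in the fit because each line was divided over both media, per the labels; deviations from the medium means correlated within lines at 0.617 to 0.883 (bovine) and 0.488 to 0.725 (mouse). Each line has 1 well per medium, so the spread holds differences between wells too. edgeR 4.0.16 and DESeq2 1.42.0 on recovered reads, other filters, pseudocounts and scalings, the fit without the block, and leaving out lines were alternatives.

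The 8 genes and all lists were chosen with earlier results of these data known. Named beside the 8 are AXIN2 and CTNNB1, up to 4 genes of a list with the smallest p, and the 3 genes most like TNKS, TNKS2 and AXIN1; markers of other cell types are given by their levels.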

Additional observations from a re-analysis of the deposited data

Results flagged for a closer look

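In groups of 5 libraries, a library was singled out where its gap to the nearest of the others exceeded 0.71 of the whole range (Dixon's 95% value). Of 36 groups examined, 4 had such a library, where chance flags about 1 group in 20. Bovine CSNK1A1 without IWR-1 was low in line 4, at 15903 normalised reads. Bovine AXIN2 was high in line 4 in both media, at 3202 with and 5945 without IWR-1, against 228 to 1091 in the other lines. Mouse Csnk1a1 with IWR-1 was high under line 8, at 9224.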

How the results depend on the processing

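Of 128 alternative values for the 8 genes in each table (16 settings), 0 were called; the smallest adjusted p was 0.314 (bovine) and 0.269 (mouse). Without the replicate block, 0 bovine and 0 mouse genes rose or fell by limma or edgeR, and DESeq2 called 2 and 0 (bovine) and 4 and 11 (mouse) up and down; the block-free edgeR and DESeq2 fits were chosen after seeing the data. With the mouse share as a covariate and the line block kept, 0 were called in either table. Against 164 rising and 12 falling bovine and 340 and 325 mouse genes, no filter gave 51 and 2, and 169 and 160; DESeq2 with the block gave 358 and 64 bovine, and edgeR with the block 178 and 12. With 1 line left out, bovine genes that rose numbered 31 to 160 and fell 0 to 25, mouse genes 137 to 478 and 133 to 457, and genes called among lines 9030 to 12755 and 3669 to 6462.

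Signs turned for some changes, bovine USP25 (0.25 in the main fit) and SH3BP2 (0.16) among them, and the cause was not tested. Leaving out 1 line gave RNF146 -0.061 to 0.010, APC -0.13 to 0.092, GSK3A -0.038 to 0.030 and GSK3B -0.12 to 0.051 (bovine), and Tnks -0.13 to 0.10, Apc -0.048 to 0.17, Gsk3a -0.025 to 0.048 and Gsk3b -0.060 to 0.13 (mouse); the GSK3A/GSK3B ratio ran from -0.088 to 0.11 (bovine) and -0.16 to 0.065 (mouse). The covariate turned bovine RNF146 to 0.062, USP25 to -0.076, SH3BP2 to -0.024, PARG to 0.0017 and mouse Gsk3b to -0.099, and DESeq2 without the block put GSK3B at 0.00066. Counting error limits Rnf146 most.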

Other observations

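The wider family of poly(ADP-ribose) polymerases and the enzymes that remove the chains was read from a list of 17 genes, all tested in the bovine table. None rose or fell (limma, line as a block), where 0.951% of all tested bovine genes did, 0 had an unadjusted p under 0.05 against 10.1% of all, and edgeR and DESeq2 with the block called 0; the median log2 fold change was -0.01. PARP6, a mono-ADP-ribosyltransferase, was at -0.14 ± 0.07 SE (limma adjusted p = 0.561) and PARP16, a transferase of the endoplasmic reticulum, at 0.10 ± 0.07. PARG, which cleaves the chains, went from 4681 ± 451 to 4520 ± 471 normalised reads (SD, n = 5; -0.05 ± 0.05 SE), and ADPRS, which removes ADP-ribose from serine, was at 0.08 ± 0.07.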
